A study of Homo sapiens with 3 samples.

Results

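The insulin-like growth factor (IGF) system was followed across chambered cardiac organoids (CCOs) through 10 of the 32738 gene rows of a single-cell UMI count table: 2 ligands (IGF1, IGF2), 2 receptors (IGF1R, IGF2R) and 6 binding proteins (IGFBP1, IGFBP2, IGFBP3, IGFBP4, IGFBP5, IGFBP7). The rows were taken by gene symbol, with earlier results of these data known, and all 10 were present. CCOs were made from H7, a human embryonic stem cell line, by switching Wnt signalling on and then off with CHIR99021 and IWP-2 before aggregation at day 7, and droplet libraries of the 3′ end of transcripts were prepared from dissociated CCOs on day 8 (D8), D14 and D21. Up to day 7 the cells had been in RPMI with B27 lacking insulin, so D8 organoids were 1 day past aggregation in Matrigel. From day 7 to D14 they were kept in a growth medium with B27, thrombin, cardiotrophin-1, EGF, FGF-2, Wnt-3A and EDN1, and from D14 to D21 in a spinner flask with RPMI and B27. All 3 days therefore share 1 cell line and 1 protocol, each day is 1 library, and how many organoids went into a library was not given in the sources used here. The day, the medium and the library cannot be told apart.

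IGF1 and IGF2 are secreted peptides that act through the IGF1 receptor, a tyrosine kinase that also pairs with the insulin receptor and signals to PI3K, AKT and FOXO. The IGF2 receptor lacks a kinase and carries IGF2 and mannose-6-phosphate-tagged enzymes to the lysosome. Binding proteins hold the ligands outside the cell, lengthen their life and limit or present them to receptors, and are cut by proteases such as pappalysin. In the developing heart IGF2, which is imprinted and made by epicardium and by the fetal liver, is known as a growth factor for the ventricular wall.

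The promoters of IGFBP3, IGFBP4 and IGFBP5 are shown because IGFBP3 and IGFBP5 both rose between D14 and D21 in fibroblast-like and dividing cells, while IGFBP4 kept its highest level in endothelial-like cells on every day. Each runs 5′ to 3′ on the gene's own strand from 250 bases before to 50 bases after the RefSeq start (build GRCh38.p14), at chr7:45921223-45921522 on the minus strand, chr17:40443200-40443499 on the plus strand and chr2:216695500-216695799 on the minus strand. Capitals mark a TATA box (TATAAA) or a GC box (written GGGCGG, or its reverse complement).
IGFBP3: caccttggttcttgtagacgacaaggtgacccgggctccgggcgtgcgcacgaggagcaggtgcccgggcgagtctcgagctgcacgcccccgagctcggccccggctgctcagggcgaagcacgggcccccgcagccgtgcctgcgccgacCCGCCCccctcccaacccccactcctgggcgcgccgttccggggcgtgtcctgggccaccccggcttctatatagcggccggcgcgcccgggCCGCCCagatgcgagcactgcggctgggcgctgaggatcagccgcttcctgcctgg
IGFBP4: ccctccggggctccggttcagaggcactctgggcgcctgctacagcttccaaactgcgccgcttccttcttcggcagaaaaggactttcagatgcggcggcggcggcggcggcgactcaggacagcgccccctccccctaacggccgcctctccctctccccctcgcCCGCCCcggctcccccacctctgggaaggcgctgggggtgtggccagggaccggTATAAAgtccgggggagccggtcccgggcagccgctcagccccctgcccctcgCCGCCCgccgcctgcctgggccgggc
IGFBP5: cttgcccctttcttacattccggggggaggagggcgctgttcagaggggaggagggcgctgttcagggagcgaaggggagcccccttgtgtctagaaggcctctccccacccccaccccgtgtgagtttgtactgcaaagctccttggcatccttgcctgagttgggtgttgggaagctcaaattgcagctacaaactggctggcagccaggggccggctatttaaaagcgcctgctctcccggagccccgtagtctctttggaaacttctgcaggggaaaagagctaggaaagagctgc
Both strands were searched for these motifs and for the CCAAT box, spelled as its name, and no match overlapped another. The TATA box was in 11.5% of the 35116 RefSeq promoters of this length, the CCAAT box in 34.6% and the GC box in 44.95%. Counted to the first base of a match, with the start at 1 and the base before it at −1, IGFBP4 held a TATA box at −29 and GC boxes on the opposite strand at −83 and 25. IGFBP3 held GC boxes on the opposite strand at −98 and −6, and none of the 3 motifs as spelled was found in this window of IGFBP5. Only these exact spellings were searched, so TATA-like stretches with other letters were not marked in any window. The windows of IGFBP3 and IGFBP4 held 36 and 30 CpG dinucleotides, that of IGFBP5 held 9, and the median over all promoters was 14 (5th to 95th percentile 1 to 42). These matches describe the letters of the windows and say nothing of binding. Of the 10 genes, 7 had a promoter in the table, and IGF2, IGFBP1 and IGFBP7 had no entry. IGFBP2 and IGFBP5 are known to be neighbours in the genome, as are IGFBP1 and IGFBP3.

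Of 17327 barcodes, the cell filter kept 2657 for D8, 3585 for D14 and 1946 for D21, with 30898727 to 50247286 UMIs per day and a median of 12282 to 15316 UMIs per cell. The median mitochondrial share of UMIs in kept cells went from 2.10% (D8) through 3.16% (D14) to 5.43% (D21), and 9 to 14 barcodes were shared by the kept cells of any pair of days. Clustering without the 10 genes gave 21 groups of at least 30 cells in a day, with 7 on the first day, 8 on the second and 6 on the last. Cardiomyocyte (CM)-like, dividing and endothelial-like cells were present on every day, fibroblast-like cells at D14 and D21 and hepatic endoderm-like cells at D21, each with at least 3 of its 8 markers above the other cells. Nearly all CM-like cells lay in cluster 7 on D8, in cluster 4 on D14 and in clusters 6 and 18 on D21, the fibroblast-like cells in clusters 3 and 5 on D14 and in cluster 1 on D21, and the endothelial-like cells in cluster 14 throughout. Dividing cells lay in cluster 10 on D8, mostly in cluster 8 on D14 (432 of 458 cells) and mostly in cluster 15 on D21 (136 of 173), and cluster 15 met 4 of the 8 fibroblast markers where clusters 8 and 10 met none. A CM-like, fibroblast-like or dividing group of 1 day may therefore in part be that library. Clusters 3 and 5 met 3 and 4 of the 8 fibroblast markers, where cluster 1 met all 8. The fibroblast-like groups of D14 and D21 thus differed in how far they met their markers. Taken by a per-cell gate on markers instead of clusters, fibroblast-like cells were 100 at D14 and 150 at D21. The CM-like groups held 476, 658 and 538 cells in order of day, the dividing 353, 458 and 173, the endothelial-like 48, 53 and 38, the fibroblast-like 1251 and 826 and the hepatic endoderm-like 306. Cluster 9 met 7 of 8 foregut epithelium and 5 of 8 hepatic endoderm markers. It was left without a name because more of its leading genes were on the hepatic list. The 7 clusters without a name are called by number. They were led by EBF2 and HAND1 (cluster 0), SFRP2 and SOX2 (cluster 12), NPPB and NDRG1 (cluster 13), FOXA2 and APOA2 (cluster 9), PMEL and CYP26A1 (cluster 16), RGS4 and SLIT2 (cluster 2), and CXCL14 and MYL2 (cluster 17, with collagen and TNNT2 transcripts together).

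Levels are UMIs of a gene per 1000000 UMIs of a group (CPM), and are not divided by transcript length because each 3′ molecule is counted once whatever its length. Brackets hold exact Poisson 95% intervals, which cover counting error only. There were no replicates, so no p-values are given. A gene is said to have risen or fallen only where its level differed by 2-fold or more between days (1 count added to both) and reached 10 CPM on at least 1 of them. Log2 ratios are of the later over the earlier day, and ratios between classes are of the same day, both with exact 95% intervals from the split of the counts.

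The map of levels shows how far the 10 genes differed in abundance. IGF2, IGFBP2 and IGFBP7 were the most abundant in several groups, IGFBP3, IGFBP4 and IGFBP5 reached 408 to 587 CPM at their highest, and the receptors lay between 10.01 and 61.2 CPM in all 21 groups. IGF1 and IGFBP1 stayed under 22.6 CPM except in the group that set that value.

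**Figure D1:**
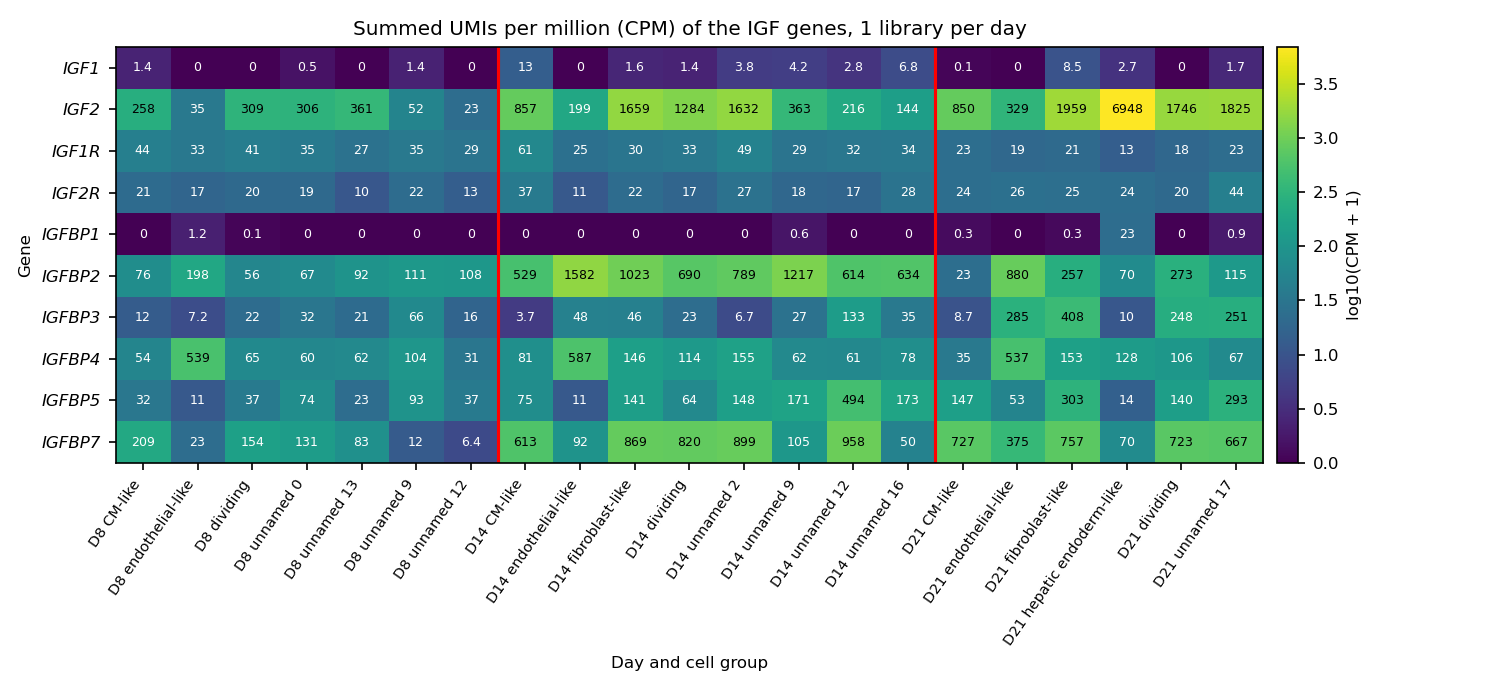
CPM from summed UMIs of the 10 genes (rows) in the 21 groups of at least 30 cells (columns, split by day with red lines), coloured by log10(CPM + 1) with the CPM printed in each cell. IGF2 at D21 in hepatic endoderm-like cells (6948 CPM) is the highest level on the map, and the columns of D14 are brighter than those of D8 for IGF2, IGFBP2 and IGFBP7.

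IGF1, the ligand made mainly by liver and mesenchyme after birth, changed its highest class between D14 and D21. In CM-like cells it stood at 1.42 (0.711 to 2.55) CPM at D8, 13.2 (10.9 to 15.7) at D14 and 0.138 (0.00349 to 0.767) at D21, from 11, 121 and 1 UMIs. The D14 level was above that of fibroblast-like cells at D14 (1.58 [1.01 to 2.35]) by 8.32-fold (5.33 to 13.5). The 121 UMIs lay in 66 of 658 cells, at most 11 in a cell, so the D14 level was not set by a few cells. The CM-like log2 ratio was 3.21 (2.32 to 4.25) from D8 to D14 and −6.58 (−11.89 to −4.07) from D14 to D21, a rise followed by a fall from 121 UMIs to 1. In fibroblast-like cells IGF1 went the other way, from 1.58 CPM at D14 to 8.47 (6.86 to 10.4) at D21 (95 UMIs in 53 of 826 cells, log2 ratio 2.42 [1.76 to 3.13]), but it stayed under 10 CPM and so was not counted. At D21 this was the highest group and its interval lay clear of the next, hepatic endoderm-like cells at 2.66 (1.63 to 4.11). No IGF1 UMI was seen in endothelial-like cells on any day, which at the depth of D21 allows up to 5.12 CPM. The other D14 groups held 1.38 to 6.78 CPM, and the D8 groups at most 1.42.

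Thinned to 4000 UMIs per cell, 3.19% (1.99 to 4.84%) of D14 CM-like cells had an IGF1 UMI (10.03% unthinned), against 0.3997% (0.130 to 0.930%) of fibroblast-like cells (1.44%), at median depths of 12784 and 11292 UMIs. The intervals of the thinned shares did not overlap. With CM-like cells taken by a per-cell gate on markers instead of clusters, their level of IGF1 at D14 was below the 10 CPM asked for, so IGF1 was not counted in either step, and its log2 ratio from D14 to D21 was −1.51 with 1 count added. The level was also below 10 CPM at a clustering resolution of 0.4, with a log2 ratio of −4.28 for that step.

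IGF2, the fetal ligand, was the most abundant of the 10 genes over all cells on every day. Over all cells it stood at 231 (227 to 236) CPM at D8, 1217 (1207 to 1227) at D14 and 2847 (2828 to 2866) at D21. From D8 to D14 it rose in each of the 5 groups present on both days, by a log2 ratio of 1.73 (1.66 to 1.81) in CM-like cells, 2.52 (1.93 to 3.16) in endothelial-like cells and 2.06 (1.99 to 2.12) in dividing cells, with 2.80 (2.63 to 2.97) in cluster 9 and 3.23 (2.93 to 3.54) in cluster 12. Between D14 and D21 it passed 2-fold in none of the 4 groups present on both days. There the log2 ratio was −0.01 (−0.06 to 0.04) in CM-like, 0.24 (0.21 to 0.27) in fibroblast-like, 0.44 (0.39 to 0.49) in dividing and 0.72 (0.39 to 1.06) in endothelial-like cells. Over all cells it rose in that step (log2 ratio 1.23 [1.21 to 1.24]). Hepatic endoderm-like cells, whose IGF2 is described below, were 0.112% of D14 cells and 15.7% of D21 cells.

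In CM-like cells IGF2 was at 258 (246 to 269) CPM at D8, 857 (838 to 876) at D14 and 849.5 (828 to 871) at D21. The CM-like level of D14 was 1130 CPM at a clustering resolution of 0.4 and 1192 under the marker gate. Fibroblast-like cells held 1659 (1638 to 1679) CPM at D14 and 1959 (1933 to 1985) at D21, and endothelial-like cells were the lowest named class on every day with 34.7 (23.2 to 49.8), 199 (166 to 237) and 329 (284 to 379) CPM. Of the 193 endothelial-like IGF2 UMIs of D21, 80 were in 1 cell, and without it the level was 199 CPM. Dividing cells held 309, 1284 and 1746 CPM. Among unnamed groups, cluster 13 was highest at D8 (361 [342 to 379.9]), cluster 2 at D14 (1632 [1606 to 1658], overlapping the fibroblast-like interval), and clusters 9, 12 and 16 were low, between 22.9 and 363 CPM.

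Hepatic endoderm-like cells, which met all 8 of their markers, held 6948 (6889 to 7008) CPM of IGF2 at D21. This was 3.55-fold (3.49 to 3.60) the level in fibroblast-like, 8.18-fold (7.97 to 8.40) that in CM-like and 21.1-fold (18.3 to 24.4) that in endothelial-like cells. Every one of the 306 cells had an IGF2 UMI, but the level was uneven among them: per 10000 UMIs of a cell, the 5th percentile was 1.36, the median 42.1 and the 95th percentile 306. The 31 cells with most IGF2 carried 39.7% of the UMIs. In the 153 cells with more IGF2, the medians per 10000 UMIs of 6 of the 8 hepatic markers were higher than in the other 153. AFP, a fetal liver protein, stood at 105 against 65.4, SERPINA1 at 215 against 163, APOA1 at 222.5 against 171, TTR at 10.9 against 7.35, RBP4 at 28.03 against 24.02 and FGB at 38.1 against 36.4. APOA2 stood at 263 against 269 and AHSG at 72.8 against 74.9.

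Transcripts of hepatic cells were also seen outside them. The 8 hepatic markers in CM-like cells of D21 stood at a median of 2.14% of their hepatic level (range 1.76% to 4.52%), a share that corresponds to 149 of the 849.5 CPM of IGF2. The same reckoning gave 80.5 of 1959 CPM in fibroblast-like and 94.4 of 329 CPM in endothelial-like cells. Within the CM-like cells, cluster 6 (487 cells) held 790.0 CPM, and cluster 18 (50 cells, median depth 8172 UMIs, AFP at 5366 CPM) held 1653 CPM of IGF2. IGF2 shares its locus with INS, and the table counted 0 UMIs for the readthrough gene INS-IGF2 and 1 for INS over all kept cells. The antisense gene IGF2-AS was highest in dividing cells at D21 (25.2 CPM) and stood at 17.04 in fibroblast-like cells. Whether counting used strand was not given, so reads of overlapping genes may not be separable.

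IGF1R, the signalling receptor, was measured at low levels and was highest in CM-like cells on each day. CM-like cells held 44.3 (39.7 to 49.2) CPM at D8, 61.2 (56.3 to 66.5) at D14 and 23.1 (19.8 to 26.9) at D21. At D8 the CM-like interval overlapped those of dividing cells (40.9), endothelial-like cells and cluster 9, and at D21 those of every group but the hepatic endoderm-like cells. At D14 it was clear of the next group, cluster 2 (49.05 [44.6 to 53.8]), and 2.06-fold (1.81 to 2.33) above fibroblast-like cells (29.8 CPM). Between D14 and D21 IGF1R fell in CM-like cells, with a log2 ratio of −1.40 (−1.66 to −1.15). It was lower at D21 in the other 3 groups present on both days without passing 2-fold, at −0.54 (−0.77 to −0.31) in fibroblast-like, −0.88 (−1.33 to −0.46) in dividing and −0.41 (−1.66 to 0.79) in endothelial-like cells. The lowest level of all was in hepatic endoderm-like cells, 13.04 (10.6 to 15.9) CPM. The thinned share of CM-like cells with an IGF1R UMI was 14.9% (11.8 to 18.4%), 21.9% (18.8 to 25.2%) and 8.36% (6.17 to 11.03%) in order of day (48.3%, 53.3% and 25.5% unthinned), against 3.59% (1.81 to 6.34%) of hepatic endoderm-like cells at D21. The CM-like median depths were 14452, 12784 and 12765.5 UMIs and that of the hepatic endoderm-like cells was 21929.5.

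IGF2R, the clearing receptor, was highest among named classes in CM-like cells at D14, and its intervals overlapped between the named classes of D21. CM-like cells held 20.8 (17.8 to 24.3), 36.5 (32.7 to 40.7) and 23.5 (20.1 to 27.3) CPM at D8, D14 and D21, fibroblast-like cells 22.01 and 24.7, and hepatic endoderm-like cells 23.6. At D14 the CM-like level was 1.66-fold (1.42 to 1.94) that of fibroblast-like and 3.35-fold (1.61 to 8.40) that of endothelial-like cells. The highest value of the table was in cluster 17 (44.4 [33.1 to 58.4]), the lowest in cluster 13 of D8 (10.01 [7.12 to 13.7]). In endothelial-like cells it passed 2-fold from D14 to D21 on 7 and 15 UMIs, with an interval of the log2 ratio that held 0 (1.23 [−0.15 to 2.77]).

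In CM-like cells with an IGF1R UMI after thinning, IGF2 was also seen in 50.7% of 71 cells at D8, 79.2% of 144 at D14 and 80.0% of 45 at D21. Both transcripts were seen together in 7.56%, 17.3% and 6.69% of all CM-like cells in order of day. The shares of IGF2 over all CM-like cells were 53.6% (48.98 to 58.1%), 77.1% (73.6 to 80.2%) and 72.7% (68.7 to 76.4%), close to those of the cells with the receptor.

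**Figure D2:**
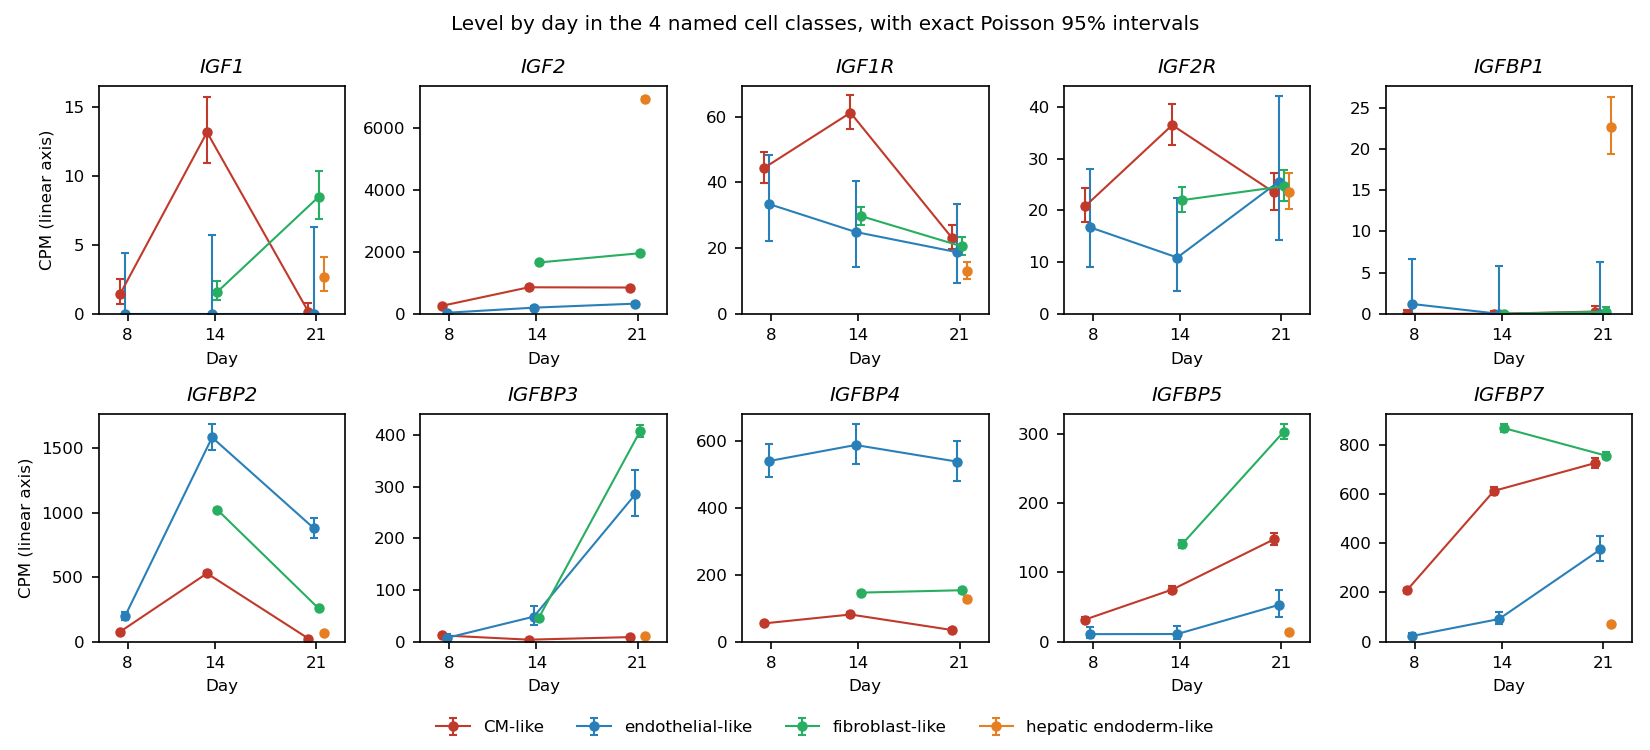
CPM of each gene (1 panel each, linear axis from 0) against day in CM-like, endothelial-like, fibroblast-like and hepatic endoderm-like cells, with bars for exact Poisson 95% intervals and 1 library per point. IGF1R peaks at D14 in CM-like cells (61.2 CPM), IGFBP2 peaks at D14 in every class measured then, and IGFBP3 and IGFBP5 in fibroblast-like and endothelial-like cells are highest at D21.

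IGFBP1, the binding protein that liver cells secrete in response to fasting and stress, was counted in hepatic endoderm-like cells and hardly elsewhere. It stood there at 22.6 (19.4 to 26.3) CPM at D21, from 170 of the 176 UMIs of that day. The UMIs were in 27 of 306 cells and 57 of them in 1 cell, without which the level was 15.1 CPM. Fibroblast-like cells held 3 UMIs and CM-like cells 2, giving ratios of 84.6 (28.4 to 414) and 82.2 (22.4 to 684), and endothelial-like cells held none, a ratio of at least 4.42-fold against the limit of 3 counts. After thinning, 4.25% (2.28 to 7.16%) of hepatic endoderm-like cells had a UMI (8.82% unthinned, median depth 21929.5 UMIs) against 0.372% (0.0451 to 1.34%) of CM-like cells (0.372% unthinned, 12765.5 UMIs). At D8 the day had 2 UMIs in all and at D14 it had 7, in 3 cells. Of the 7, 4 were in 1 of the 4 hepatic endoderm-like cells of that day and 3 in 2 cells of cluster 9.

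IGFBP2, a binding protein of fetal tissues with a preference for IGF2, rose in every group to D14 and fell in 3 of 4 groups to D21. In CM-like cells it went from 76.1 (70.1 to 82.5) CPM at D8 to 529 (514 to 544) at D14 and 23.1 (19.8 to 26.9) at D21. The log2 ratio was 2.80 (2.67 to 2.92) for the rise and −4.51 (−4.75 to −4.29) for the fall. The fall was −4.09 at a clustering resolution of 0.4 and −2.85 under the marker gate. The CM-like level of D21 was 35.5 and 85.4 CPM in those settings. All 5 groups present at D8 and D14 rose, with log2 ratios of 2.50 to 3.61. In barcodes under 600 genes, which were not among the kept cells, IGFBP2 stood at 69.6, 395 and 70.8 CPM in order of day, and their part in the changes within groups was not tested. In fibroblast-like cells IGFBP2 went from 1023 (1007 to 1039) to 257 (248 to 267) CPM (log2 ratio −1.99 [−2.05 to −1.94]), and in dividing cells from 689.6 to 273 (−1.34 [−1.45 to −1.23]). Endothelial-like cells were the highest group on every day, at 198 (169 to 231), 1582 (1486 to 1682) and 880.2 (806 to 959.6) CPM, and the interval was clear of the next group each time. Their D14 to D21 log2 ratio of −0.85 (−1.001 to −0.69) did not pass 2-fold. The lead over CM-like cells was 2.60-fold (2.18 to 3.10) at D8, 2.99-fold (2.79 to 3.20) at D14 and 38.05-fold (31.9 to 45.6) at D21. The D21 ratio rests on the CM-like level of 23.1 CPM, which was higher at resolution 0.4 and under the marker gate. Cluster 9 came next at D14 (1217 [1186 to 1248]), and hepatic endoderm-like cells were low at D21 (69.9 [64.03 to 76.1]).

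IGFBP3, the main carrier of IGFs in serum and a product of stromal cells, was higher at D21 than at D14 in fibroblast-like, dividing and endothelial-like cells. Fibroblast-like cells went from 46.3 (42.9 to 49.8) to 408 (396 to 420.0) CPM, a log2 ratio of 3.14 (3.03 to 3.26). Dividing cells went from 22.5 (19.3 to 26.05) to 248 (230.4 to 266) (3.46 [3.22 to 3.70]), with 98.3 CPM at D21 in cluster 8 and 287 in cluster 15, the one that met 4 fibroblast markers, and endothelial-like cells from 48.3 (32.8 to 68.5) to 285 (243 to 332) (2.56 [2.002 to 3.16]). IGFBP3 thus rose in all 3 groups in which it was tested for that step. Of the 167 endothelial-like UMIs of D21, 92 were in 1 cell, and the level without it was 138 CPM. CM-like cells held 12.04 (9.72 to 14.8), 3.70 (2.56 to 5.17) and 8.67 (6.67 to 11.1) CPM in order of day, and hepatic endoderm-like cells 10.1 (7.97 to 12.7), so the fibroblast-like level of D21 was 47.03-fold (36.7 to 61.3) and 40.3-fold (32.1 to 51.3) theirs. The CM-like level of D21 was 41.6 CPM at resolution 0.4 and 113 under the marker gate, and in those settings IGFBP3 rose in CM-like cells from D14 to D21 (log2 ratios 3.08 and 4.71), as it did with cells weighted equally (1.69). From D8 to D14 IGFBP3 fell in CM-like cells (−1.70 [−2.32 to −1.12]) and in cluster 9 (−1.29 [−1.59 to −1.01]), and rose in endothelial-like cells (2.75 [1.47 to 4.30], 6 and 31 UMIs) and cluster 12 (3.02 [2.66 to 3.40]). The CM-like fall was lost at a mitochondrial limit of 5% (−0.88) and under the gate (−1.19, with both days under 10 CPM). The CM-like value of D21 rested in part on cluster 18, where it was 59.7 CPM against 5.02 in cluster 6, and cluster 17, which held TNNT2 at 4628 CPM but met none of the CM markers by the naming rule, was at 251 (223 to 282) CPM.

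IGFBP4, a binding protein that inhibits IGF action until pappalysin cuts it, was a transcript of endothelial-like cells above all. They held 539 (490.3 to 591), 587 (529 to 649) and 537 (479.6 to 600.1) CPM, with log2 ratios between days of 0.12 (−0.08 to 0.32) and −0.13 (−0.35 to 0.09). Both intervals held 0. No other group passed 155 CPM, the level of cluster 2 at D14. The thinned share of endothelial-like cells with a UMI was 85.4% (72.2 to 93.9%), 88.7% (76.97 to 95.7%) and 89.5% (75.2 to 97.1%), against 11.3% (8.78 to 14.3%) of CM-like cells at D21 (100% and 31.2% unthinned at D21, at median depths of 13933.5 and 12765.5 UMIs). At D21 the endothelial-like level was 3.50-fold (3.10 to 3.95) that of fibroblast-like, 4.21-fold (3.70 to 4.79) that of hepatic endoderm-like and 15.6-fold (13.1 to 18.4) that of CM-like cells. In CM-like cells IGFBP4 stood at 54.1 (49.1 to 59.6), 80.9 (75.2 to 86.9) and 34.6 (30.4 to 39.1) CPM and fell in the second step (log2 ratio −1.23 [−1.44 to −1.02]). With the marker gate that log2 ratio was −0.84 and did not pass 2-fold.

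IGFBP5, which binds extracellular matrix and is made by mesenchyme and muscle, was higher at D21 than at D14 in all 4 groups present on both days. It rose in fibroblast-like cells from 141 (135 to 147) to 303 (293 to 313) CPM (log2 ratio 1.10 [1.03 to 1.18]) and in dividing cells from 63.5 (58.1 to 69.3) to 140.0 (127 to 154) (1.14 [0.95 to 1.33]). In CM-like cells it went from 31.9 (28.00 to 36.1) to 75.01 (69.5 to 80.8), a rise, and then to 147 (139 to 156) CPM, a log2 ratio of 0.97 (0.83 to 1.11) that stayed just under 2-fold and reached 1.11 under median-of-ratios scaling. The CM-like rise to D14 did not pass 2-fold with a larger set of variable genes (0.82). In endothelial-like cells the counts were few, 9, 7 and 31 UMIs in order of day (10.8, 10.9 and 52.9 CPM). Of the 31, 19 were in 1 cell, and the level without it was 21.15 CPM. Without the cells of highest doublet score it was 10.3 CPM at D14 and 5.56 at D21, and at a mitochondrial limit of 5% it was 10.9 and 5.00, so that the direction turned. Hepatic endoderm-like cells were the lowest group of D21 (14.2 [11.7 to 17.2]). The highest value was that of cluster 12 at D14 (494 [462 to 528] CPM), up from 36.95 (31.9 to 42.6) at D8.

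IGFBP7, a low-affinity binding protein of the vessel wall and other matrix, rose in all 5 groups from D8 to D14. CM-like cells held 209 (199 to 219.7) CPM at D8, 613 (598 to 629.7) at D14 and 727 (708 to 747) at D21, with log2 ratios of 1.55 (1.47 to 1.63) and 0.25 (0.19 to 0.30). Dividing cells held 154, 819.9 and 723 CPM, and fibroblast-like cells 869 (854 to 884) and 757 (741 to 774). At D21 the intervals of fibroblast-like and CM-like cells overlapped, as did those of CM-like cells, dividing cells and cluster 17. Endothelial-like cells were low but rose in both steps, from 22.7 (13.7 to 35.5) to 91.9 (69.9 to 119) and 375 (327 to 428) CPM (2.02 [1.25 to 2.85] and 2.03 [1.61 to 2.47]), with 49 of the 220 UMIs of D21 in 1 cell and 305 CPM without it. The largest ratio of all was that of cluster 12, from 33 UMIs (6.42 CPM) to 1697 (958 CPM). Hepatic endoderm-like cells held 69.7 (63.9 to 75.98) CPM.

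Counted together, 6 of the 9 genes tested in CM-like cells passed 2-fold from D8 to D14. IGF1, IGF2, IGFBP2, IGFBP5 and IGFBP7 rose, where 10.7% of the 9026 genes tested rose, and IGFBP3 fell, where 3.52% fell. The median log2 ratio of the 9 was 1.23, beside 0.02 over all genes tested. From D14 to D21 none of the 8 tested rose (4.89% of 9037 genes, while IGFBP3 or IGFBP5 did under 5 alternatives that kept the 2-fold threshold) and 4 fell, IGF1, IGF1R, IGFBP2 and IGFBP4 (13.7%). Their median log2 ratio was −0.93, beside −0.13 over all genes. Over all cells 4 of 8 rose from D8 to D14, IGF2, IGFBP2, IGFBP5 and IGFBP7 (8.95% of 9105 genes), and none fell (1.63%). From D14 to D21 over all cells, IGF2 and IGFBP3 rose (5.8% of 9333 genes) and IGF1R and IGFBP2 fell (10.1%), the IGF1R log2 ratio being −1.05 (−1.19 to −0.92) and −0.85 under median-of-ratios scaling. In fibroblast-like cells 2 of 8 rose from D14 to D21, IGFBP3 and IGFBP5 (5.86% of 8981 genes), and 1 fell, IGFBP2 (10.5%). Median-of-ratios scaling moved the share of rises among all calls from 36.5% to 50.2% over all cells and from 35.8% to 47.6% in fibroblast-like cells for D14 to D21, with a shift of −0.20 and −0.16 in log2. In CM-like cells the shift for that step was −0.13 and the share of rises went from 26.2% to 35.2%. These comparisons share the D14 library, and D8 and D21 were not compared directly.

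At D21, a gene was said to have a leading class when 1 of the 4 named classes was 2-fold or more above the other 3. Of the 9 genes tested, 5 had one, beside 26.2% of 10196 genes. IGF2 and IGFBP1 were led by hepatic endoderm-like cells, IGFBP2 and IGFBP4 by endothelial-like cells, and IGFBP5 by fibroblast-like cells at 2.06-fold (1.92 to 2.20) the CM-like level, a lead that was lost at resolution 0.4. IGFBP3 was highest in fibroblast-like cells at 1.43-fold (1.23 to 1.68) the endothelial-like level, and IGFBP7 at 1.04-fold (1.01 to 1.08) the CM-like level. IGF1R and IGF2R had highest classes only 1.13-fold and 1.10-fold above the next. No member was led by CM-like cells, which led 725 of the 10196 genes tested. Endothelial-like cells led 843, hepatic endoderm-like cells 728 and fibroblast-like cells 377.

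By number of molecules the order of the classes was another one, since it also holds their cell numbers and depth. Fibroblast-like cells were 42.4% of D21 cells and held 80.5% of IGF1, 77.2% of IGFBP3, 63.2% of IGFBP5, 56.7% of IGFBP2, 48.5% of IGFBP7 and 47.1% of IGFBP4 UMIs. Hepatic endoderm-like cells were 15.7% of cells and held 59.3% of IGF2 and 96.6% of IGFBP1 UMIs, with 24.3% of all UMIs of the day. Endothelial-like cells were 1.95% of cells and held 10.2% of IGFBP2 and 8.63% of IGFBP4 UMIs. CM-like cells were 27.6% of cells and held 30.2% of IGFBP7 and 28.5% of IGF1R UMIs but 7.01% of IGF2 and 3.31% of IGFBP2. These D21 shares hold for the mitochondrial limit of 10%. At a limit of 20%, CM-like cells were 45.7% and fibroblast-like cells 24.0% of D21 cells. At D14, when CM-like cells were 18.4% of cells, they held 54.3% of IGF1 and 28.3% of IGF1R UMIs.

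**Figure D3:**
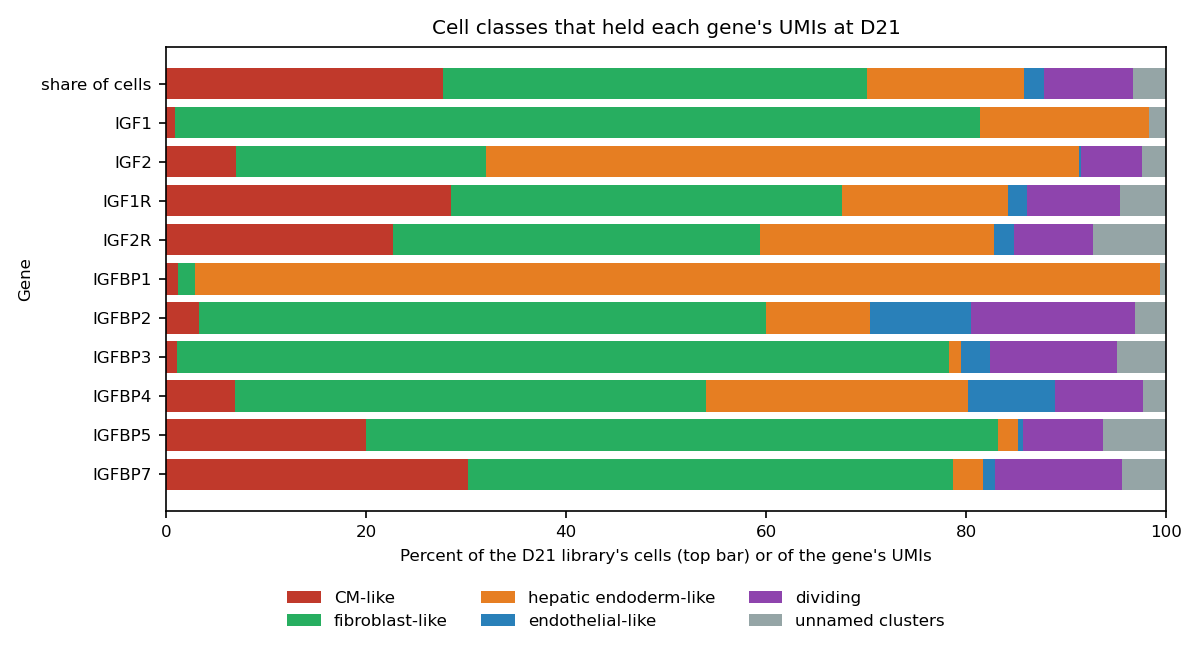
Share of the D21 cells in each class (top bar) and share of each gene's UMIs from each class (other bars), in percent, 1 library. Hepatic endoderm-like cells fill 59.3% of the IGF2 bar and 96.6% of the IGFBP1 bar, and fibroblast-like cells 77.2% of the IGFBP3 bar.

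The makeup of the binding proteins differed between classes and days. Summed over the 6 genes, CM-like cells held 383, 1302 and 941 CPM in order of day. IGFBP7 made up 54.6%, 47.1% and 77.3% of it and IGFBP2 19.9%, 40.6% and 2.46%. In endothelial-like cells the sum was 779, 2320.0 and 2131 CPM, with IGFBP4 at 69.2% at D8 and IGFBP2 at 68.2% at D14 and 41.3% at D21. Fibroblast-like cells held 2225 and 1879 CPM, where IGFBP3 made up 2.08% at D14 and 21.7% at D21 and IGFBP2 46.0% and 13.7%. Hepatic endoderm-like cells held the least at D21, 314 CPM, led by IGFBP4 at 40.6%.

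Set against the ligands, the ratio of IGF1 plus IGF2 to binding protein UMIs over all cells was 0.666 at D8, 0.666 at D14 and 2.34 at D21. It was 0.675, 0.669 and 0.903 in CM-like cells, 0.746 and 1.05 in fibroblast-like cells at D14 and D21, and 0.0445, 0.0859 and 0.155 in endothelial-like cells. In hepatic endoderm-like cells it was 22.1. The ratio counts transcripts and not protein, and IGFBP6 was not among the 6 genes. It gives the 6 genes equal weight, whatever their affinity. The low-affinity IGFBP7 made up 46.4% of the sum over all cells at D21 and 77.3% of it in CM-like cells.

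**Figure D4:**
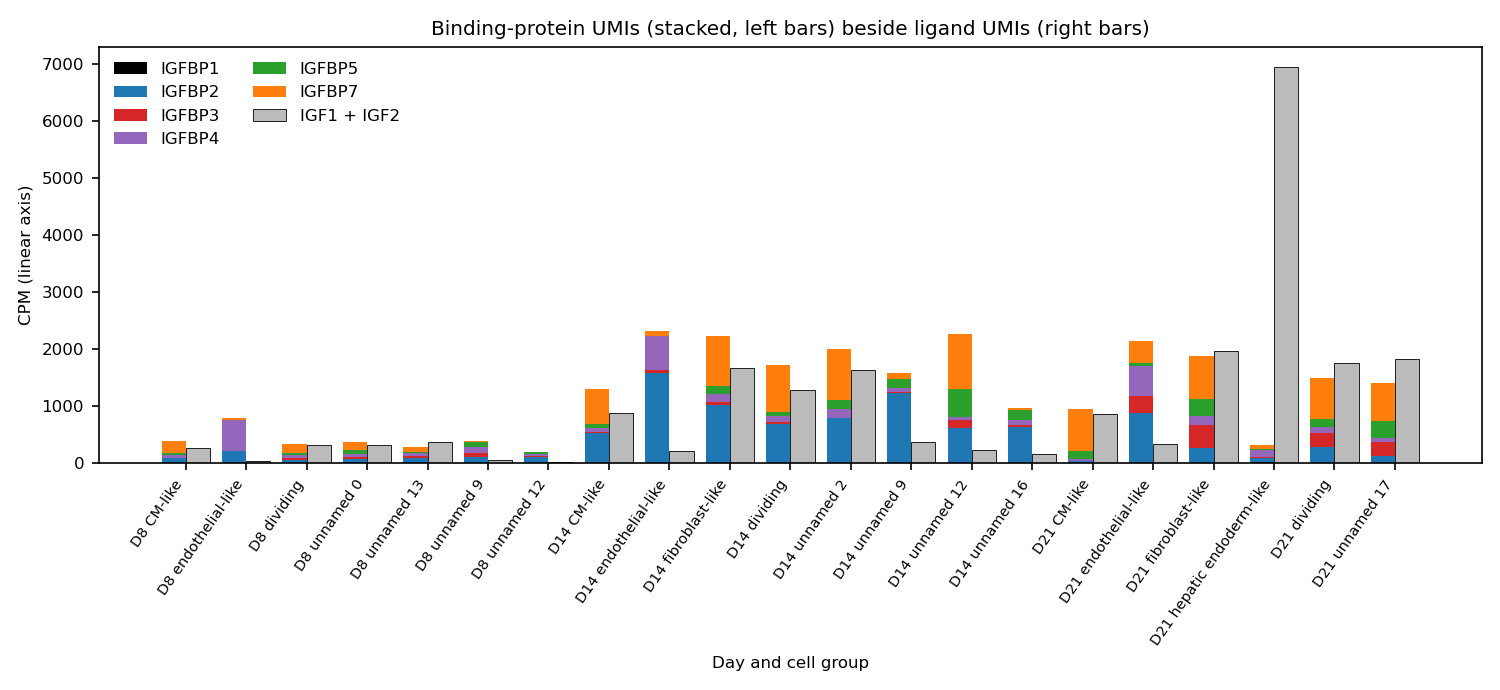
CPM of the 6 binding proteins, stacked (left bar of each pair), beside that of IGF1 plus IGF2 (right bar), in the 21 groups on a linear axis from 0. The hepatic endoderm-like ligand bar reaches 6951 CPM beside 314 CPM of binding proteins, while endothelial-like cells show the reverse at D14, with 2320.0 CPM of binding proteins and 199 of ligand.

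Other genes of the pathway were read from set lists in CM-like cells, where 10.7% of all genes rose and 3.52% fell from D8 to D14 and 4.89% and 13.7% from D14 to D21. Of 10 receptors and adaptors, 7 were tested and 2 rose from D8 to D14, with a median log2 ratio of 0.54. In the second step 1 rose and 4 fell, with a median of −1.26. IRS1, a docking protein of the IGF1 and insulin receptors, stood at 88.4, 90.3 and 35.9 CPM. It fell in the second step (log2 ratio −1.33 [−1.54 to −1.13]), as did the adaptor SHC1 (−1.31 [−1.68 to −0.96]). GRB10, an inhibitor of the IGF1 and insulin receptors, rose (1.39 [0.97 to 1.83]) and then fell (−1.62 [−2.09 to −1.16]), and GRB2 stayed between 86.9 and 93.9 CPM. The insulin receptor INSR stood at 25.1, 44.5 and 53.7 CPM, without passing 2-fold in either step. INSR falls outside the naming rule and was chosen after its values were seen. After thinning, it was seen in 10.1%, 13.8% and 20.5% of CM-like cells.

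Of 12 genes from PI3K to FOXO, 10 were tested for the first step, when 1 rose, and 11 for the second, when 1 rose and none fell (medians 0.33 and −0.17). FOXO1, a transcription factor that insulin and IGF signalling exclude from the nucleus, rose from 9.71 to 19.8 CPM (1.03 [0.63 to 1.43]) and stood at 31.4 at D21. AKT1 was at 28.9, 57.1 and 30.3 CPM, short of 2-fold both times, and FOXO3 stayed between 28.8 and 37.8 CPM.

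Of 8 proteases, partners and inhibitors of the binding proteins, 4 were tested in CM-like cells. HTRA1, a protease that cuts IGFBP5, rose from 54.1 to 219 CPM (2.02 [1.86 to 2.17]) and fell to 104 (−1.07 [−1.20 to −0.95]). The pappalysin inhibitors STC1 and STC2 fell from D14 to D21 (−5.12 [−6.19 to −4.22] and −2.32 [−2.62 to −2.03]), so that 3 of 4 fell in that step. At D21, 4 of 5 tested genes of this list had a leading class, beside 26.2% of 10196 genes. These were IGFBP6, PAPPA and STC2 in fibroblast-like cells and STC1 in endothelial-like cells. PAPPA encodes pappalysin, falls outside the naming rule and was chosen after its values were seen. It stood at 43.2 CPM in fibroblast-like and 2.20 CPM in CM-like cells.

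Of the 6 genes that bind IGF2 mRNA or act upstream of it, none rose and 2 fell in CM-like cells from D8 to D14, and 1 fell from D14 to D21. HMGA2 went from 73.2 to 28.2 and 28.6 CPM, and IGF2BP1, IGF2BP2 and IGF2BP3 were lower on each later day without passing 2-fold (IGF2BP2 179, 167 and 131 CPM). Of 7 imprinted genes tested, 3 rose and none fell from D8 to D14, and 1 rose and 4 fell from D14 to D21. PEG10 stood at 483, 1203 and 174 CPM, MEST at 68.3 and 13.5 at D14 and D21, KCNQ1OT1, an antisense transcript of the same imprinted region as IGF2, at 331 and 114, and DLK1 was the 1 that rose, from 31.2 to 94.9. IGF2 itself was level in CM-like cells in that step. In fibroblast-like cells DLK1 went from 644 to 3736 CPM. H19, the imprinted neighbour of IGF2, was not analysed here.

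Across the 21 groups, likeness was described by Pearson's r of log2(CPM + 10) among 5322 genes, a description over points that share libraries and depth. IGF2 and IGFBP7 were the most alike of the 7 members that reached 50 CPM (r = 0.71), followed by IGFBP5 and IGFBP7 (0.58), IGFBP2 and IGFBP4 (0.52) and IGFBP3 and IGFBP5 (0.51). IGFBP3 and IGF1R had the lowest value (−0.53). The genes nearest to IGFBP4 were FAM107B (0.91), EMCN (0.91) and CALCRL (0.91), and EMCN is on the list of endothelial markers. Those nearest to IGFBP3 were LUM (0.85), SRPX (0.85) and SULF1 (0.83), LUM being a fibroblast marker. IGFBP5 was nearest to LARP6 (0.82), PKDCC (0.79) and LOXL1 (0.75), IGFBP7 to ZNF503 (0.90), PTOV1 (0.88) and NDN (0.85), and IGFBP2 to MMP24-AS1 (0.81), TSPAN15 (0.80) and PSMB8 (0.78). IGF1R was nearest to KDM4B (0.93), TMEM134 (0.91) and ZMYM2 (0.89), and IGF2 to VMP1 (0.90), SMIM1 (0.84) and GALT (0.84).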

How the data were processed

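The authors deposited 1 table of raw UMI counts, genes by barcodes, for 3 droplet libraries of the 3′ end of transcripts, 1 each for D8, D14 and D21. The submitters' processing notes name Cell Ranger, Seurat 3.2.1 and the build hg19, with no version of Cell Ranger given in the sources used here. Barcodes were assigned to days by the suffix in the column names, and 0 columns were left unused. Cells with over 2000 and under 7500 genes and under 10% mitochondrial UMIs were kept. Genes in at least 10 barcodes were log-normalized to 10000, and 2000 variable genes, less the members and pathway genes among them, gave 20 principal components and clusters at resolution 0.8 without integration (R 4.3.3, Seurat 5.3.0, Matrix 1.6.5). A cluster was named when at least 3 of 8 markers were 2-fold above the other cells of the day (10 CPM added), with a lead of 2 markers over any other list. It was left unnamed where another list held more of the cluster's 10 leading genes. Counts were summed per day and group of at least 30 cells and set per 1000000 (Python 3.11.15, numpy 2.4.6, scipy 1.17.1, pandas 2.3.3, matplotlib 3.10.9). Intervals are exact at 95%, and a count of 0 allows up to 3. Shares of cells came from cells thinned to 4000 UMIs, with Clopper-Pearson intervals. Scrublet (scanpy 1.11.5) called 1, 1 and 7 doublets, too few to have worked, and none were removed. On simulated counts of D14 and D21 CM-like cells (8565 genes, 200 changed), 95.4% of the intervals covered the simulated ratio. That share bears on counting error only, since with 1 library per day the spread between libraries is not known. The named genes were the 10 members, up to 4 genes with the highest level of each pathway list, and the 3 genes most alike in pattern to each member at 50 CPM or more. Of these, 1 pathway gene is not reported here. The members and lists were chosen with earlier results of these data known. Alternatives changed the mitochondrial limit, resolution, variable genes, class definition, doublet removal, scaling, fold, CPM minimum and free RNA. Promoter sequences came from a RefSeq table of GRCh38.p14, another build than that of the files, so no coordinate was passed between them. Cell Ranger's count of 3′ reads takes reads near the transcript end, so a gene with a poorly annotated end can be under-counted.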

Additional observations from a re-analysis of the deposited data

Results flagged for a closer look

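IGFBP3 moved in opposite directions from D8 to D14 in groups of the same libraries. Its log2 ratio was 2.75 in endothelial-like cells and 3.02 in cluster 12, against −1.70 in CM-like cells and −1.29 in cluster 9. The CM-like value was −0.88 at a mitochondrial limit of 5% and −1.19 under the marker gate, and was not counted as a fall in either. The difference was not tested, since each day is 1 library.

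At D21, 1982 barcodes with 27602243 UMIs passed the other limits but held too large a mitochondrial share, and so entered no comparison above. All 10 genes were counted in them. The levels were 0.290 CPM for IGF1, 2427 for IGF2, 27.5 for IGF1R, 30.6 for IGF2R, 2.50 for IGFBP1, 25.6 for IGFBP2, 28.2 for IGFBP3, 47.4 for IGFBP4, 131 for IGFBP5 and 487.5 for IGFBP7.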

How the results depend on the processing

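The counts of members past the threshold stayed within 1.5 times the reported ones with 3 exceptions. From D14 to D21 over all cells, 2 members passed at a mitochondrial limit of 5% and 2 at 3-fold, in place of 4. In CM-like cells for the same step, 2 passed at 3-fold in place of 4. Among the changes counted here in CM-like cells and over all cells, none turned its direction. In endothelial-like cells IGFBP5 rose past 2-fold, from 10.9 CPM at D14 to 52.9 at D21, and this change did turn. It was at 10.3 and 5.56 without the cells of highest doublet score and at 10.9 and 5.00 at a limit of 5%. At a limit of 5% only 2 CM-like cells of D21 remained, so that step and the leading classes gave no value there, and the marker gate gave no leading classes. Leaving out the shallow CM-like cluster of D21, an alternative chosen after seeing the data, gave 6, 4 and 5, as reported.

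Which genes were called moved more than how many. Over all cells, the IGF1R fall of D14 to D21 was lost under median-of-ratios scaling (−0.85) and at limits of 20% (−0.88) and 5% (−0.99), and the IGF2 rise at 5% (0.58) and with cells weighted equally (0.98). In CM-like cells IGFBP3 no longer fell from D8 to D14 at 5% (−0.88) and under the marker gate (−1.19, under 10 CPM), and IGFBP4 rose at resolution 0.4 (1.06) and under the gate (1.24). In the next step IGFBP3 rose at resolution 0.4 (3.08), under the gate (4.71), with cells weighted equally (1.69) and with genes from 1 CPM tested (1.21). For the same step IGFBP5 passed 2-fold under median-of-ratios scaling (1.11), with cells weighted equally (1.05) and under the gate (1.04). The CM-like IGFBP3 level of D21 was 41.6 CPM at resolution 0.4 and 113 under the gate, beside 8.67, and the endothelial-like IGF2 level of D21 was 178 CPM without the cells of highest doublet score. The cause was not tested. Of single values, 782 levels stayed within their intervals and 208 moved, as did 205 and 105 log2 ratios and 25 and 95 shares of cells. No paired analysis was possible because each day has 1 library. Depth limits IGF1 and IGFBP1 most, at a handful of UMIs in most groups.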

Other observations

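The fibroblast-like cells of D14 were not uniform in these genes. Cluster 3 held 1848 CPM of IGF2 and 1199 of IGFBP2, against 1445 and 828 in cluster 5, while IGFBP7 was at 603 and 1149.8 CPM and IGFBP3 at 25.2 and 70.2. IGFBP5 was at 183 CPM in cluster 3 and 93.7 in cluster 5. At D21, the 94 fibroblast-like cells with a UMI of KDR, a vascular receptor, held 519.5 CPM of IGFBP5 against 269 in the other 732, and the 92 with a UMI of the epicardial genes WT1 or TBX18 held 230.3 CPM against 312 in the other 734. These subsets were chosen after the data were seen and are of 1 library.

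With the mitochondrial limit at 20%, the CM-like cells of D21 with 10% to 20% (1202 cells) held 914 CPM of IGF2 and 607 of IGFBP7, against 777 and 710 in the 443 below 10%. The hepatic endoderm-like cells with 10% to 20% (155 cells) held 10790 CPM of IGF2, against 6951 in the 305 below it. Barcodes under 600 genes, which entered no comparison, carried IGF2 at 153 CPM at D8, 558 at D14 and 1171 at D21, and IGFBP7 at 134.5, 510.5 and 435.5 CPM. IGFBP3 stood there at 23.2, 21.45 and 51.4 CPM, IGFBP4 at 37.1, 55.8 and 67.99, and IGFBP5 at 92.7, 64.3 and 79.7.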
